A study of Homo sapiens and Mus musculus with 16 samples.

Results

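The genes described here are the 8649 that could be followed in both cell lines of the study, and the measure is how far their response to PD-L1 knockout differed between the lines. A gene was paired when its symbol, in upper case, stood once in the human table and once in the mouse table, which 16578 symbols did. It was kept when its level was at least 1 FPKM (a fragment density scaled to transcript length and library size) in at least 4 of the 8 libraries of each table. Of the 16578 symbols, 1842 reached that level only in the human table, 599 only in the mouse table and 5488 in neither. The paired genes were 59.9% of the 14450 human genes and 76.3% of the 11342 mouse genes that reached that level. By the fourth highest library, MLYCD in the human table (1.003 FPKM) and CCDC169 in the mouse table (1.004) were just inside the limit, and TNXB (0.996) and LONRF1 (0.995) were just outside it. A gene could pass through 1 group alone: 114 pairs reached the level in all 4 wild type and no knockout libraries of MDA-MB-231 and 47 the reverse, and in CT26 these were 26 and 33. The same symbol does not always mark the same ancestral gene, and for members of the IFIT, IFITM, IFI27 and GBP families in particular a symbol pair need not be a pair of orthologs.

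The libraries came from 4 groups of 4. MDA-MB-231 is an established human triple-negative breast cancer line, and CT26 is an established mouse colon carcinoma line. Each was sequenced as PD-L1 wild type cells (WT) and as PD-L1 knockout cells (KO) made with CRISPR delivered by lentivirus, and the labels give no other agent for either group. No source used here says if the knockout cells were pooled or 1 clone, if wild type cells carried a control virus, or if a group's 4 libraries were grown apart. P-values thus rest on the scatter among these libraries, and that scatter may be technical. The lines differ in species, tissue of origin, culture medium and knockout derivation together, and these cannot be told apart.

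PD-L1, encoded by CD274, is a cell-surface protein that binds PD-1 on T cells and restrains them. Tumour cells make it in response to interferon-gamma, and interferon-stimulated genes encode antiviral effectors and antigen-presentation proteins. The serum- and kinase-responsive immediate early genes, such as FOS and EGR1, are transcription factors that rise within minutes of growth factor signalling through ERK.

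Within a line, every library correlated with the others of its group at 0.964 to 0.981 over log2(FPKM + 1). Depth read from low FPKM values, relative to wild type replicate 1 of the line, was 0.941 to 1.21 in wild type and 0.509 to 0.779 in knockout MDA-MB-231. For CT26 it was 0.799 to 1.14 in wild type and 0.926 to 2.49 in knockout libraries. Within MDA-MB-231, low values thus carry more counting error in the knockout than in the wild type. These ratios cannot rank 1 line against the other. MDA-MB-231 libraries were at or near 0 for ESR1 and PGR, the hormone receptors this line lacks, and for MTAP and CDKN2B, whose region this line has lost. CT26 is a carcinoma line, and of its epithelial markers Epcam was at 0 and Krt8 at most at 0.295 FPKM, while Krt18 was at 30.4 to 34.8 FPKM. Vim was abundant. The defining leukocyte marker PTPRC was at most 0.715 FPKM in MDA-MB-231 and 0.0130 in CT26.

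The targeted transcript fell in CT26, while its change in MDA-MB-231 missed the threshold. CD274 (human hg38 chromosome 9, 5450503 to 5470566 in the deposited locus) was at 12.3, 11.2, 12.5 and 12.8 FPKM in wild type MDA-MB-231 and 9.93, 11.6, 8.19 and 12.5 in the knockout. These groups overlapped, and the log2 fold change of -0.205 (SE 0.12, adjusted p = 0.166) did not pass the test. Mouse Cd274 was at 1.504, 1.49, 1.43 and 1.23 FPKM in wild type CT26 and 0.548, 0.445, 0.569 and 0.543 in the knockout, with no overlap and a log2 fold change of -0.66 (SE 0.08, adjusted p = 1.42e-04). The response was 0.46 higher on the log2 scale in MDA-MB-231 in limma (SE 0.14, adjusted p = 0.00895). A two-sided exact permutation test over 4900 relabellings of genotype within lines gave p = 0.136. That test assumes no knockout effect in either line, so the fall in CT26 widens its permuted values. It therefore does not test the same hypothesis as limma, that the 2 responses are equal. After upper-quartile scaling of each library the difference was 0.21 (adjusted p = 0.196). With 5 in place of 1 added to FPKM before the logarithm, limma gave 0.06 (adjusted p = 0.558). Cd274 in CT26 was near the added 1, so the log2 scale understates its fall, and the difference depends on that setting. A CRISPR deletion of a few bases need not change the transcript's level, so these values do not check the protein.

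Few of the genes that changed at least 2-fold were common to both lines, and more genes changed, and further, in MDA-MB-231. The log2 fold changes of the 8649 genes had an SD of 0.85 in MDA-MB-231 and 0.42 in CT26. Across these genes the responses of the 2 lines correlated at Pearson's r = 0.0524 and Spearman's rho = 0.0324, a description over genes that are not independent replicates. At an adjusted p under 0.05 and a change of at least 2-fold, 1559 genes had changed in MDA-MB-231 (970 higher, 11.2% of those tested, and 589 lower, 6.81%) and 242 in CT26 (119 higher, 1.38%, and 123 lower, 1.42%).

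The difference between the responses, MDA-MB-231 minus CT26, passed the test for 6244 genes, or 72.2%. It was above 0 for 4336 (50.1%) and below 0 for 1908 (22.1%). A difference above 2-fold, tested as such, was found for 636 genes in the positive direction (7.35%) and 378 in the negative one (4.37%), 1014 in all (11.7%). The split depended on scaling, because the median difference of all genes was 0.30 on the deposited scale, with a median log2 fold change of 0.24 in MDA-MB-231 and -0.07 in CT26. Of the called genes 69.4% were higher in MDA-MB-231 as deposited, 50.8% after upper-quartile scaling, 56.5% after quantile normalization and 54.8% after centring on 20 Mb windows of each genome. Those scalings moved the median difference to 0.01, 0.10 and 0.07. Counts for gene lists are on the deposited scale, with the percent of the list in brackets and the share over all pairs beside them, and list medians are given relative to the median of all pairs. As deposited, 49.5% of all pairs rose and 23.7% fell in MDA-MB-231, and 22.5% rose and 36.5% fell in CT26. After upper-quartile scaling these shares were 37.7% and 33% in MDA-MB-231 and 29.9% and 27% in CT26, and the difference was higher in MDA-MB-231 for 35% and lower for 33.9%. Knockout and wild type libraries did not overlap for 68.2% of the pairs in MDA-MB-231 and 54.8% in CT26, so groups that stand apart are the common case.

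The kinds of pattern described next were set from these tests, so their sizes describe the data and are not themselves tested. Shared genes had passed in both lines in the same direction with at least a 2-fold change in each. There were 20 shared higher (0.231% of the pairs) and 41 shared lower genes (0.474%), which is 3.91% of the genes changed at least 2-fold in MDA-MB-231 and 25.2% of those in CT26. By direction, they were 20 of the 119 that rose and 41 of the 123 that fell at least 2-fold in CT26. In MDA-MB-231 11.2% of all pairs rose and 6.81% fell at least 2-fold. Opposite genes had passed in both with opposite signs, at least 2-fold in one line and at least 0.5 on the log2 scale in the other. These were 97 genes higher in MDA-MB-231 and lower in CT26 (1.12%) and 89 of the reverse kind (1.03%). Line-specific genes had changed at least 2-fold in one line, had a 95% confidence interval within 0.5 of no change in the other, and had passed the test of the difference. In MDA-MB-231 they were 627 higher (7.25%) and 269 lower (3.11%), and in CT26 they were 22 higher (0.254%) and 20 lower (0.231%). The other 7464 pairs were in no class. After upper-quartile scaling the opposite classes held 35 genes, all 35 of them among the 97, and 137 genes, which included all 89. The MDA-MB-231-specific classes then held 368 higher and 411 lower genes, and the CT26-specific ones 36 and 10. With a pseudocount of 5 in place of 1 there were 4 shared higher, 18 shared lower, 39 and 38 opposite, and 8 and 9 CT26-specific genes.

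**Figure D1:**
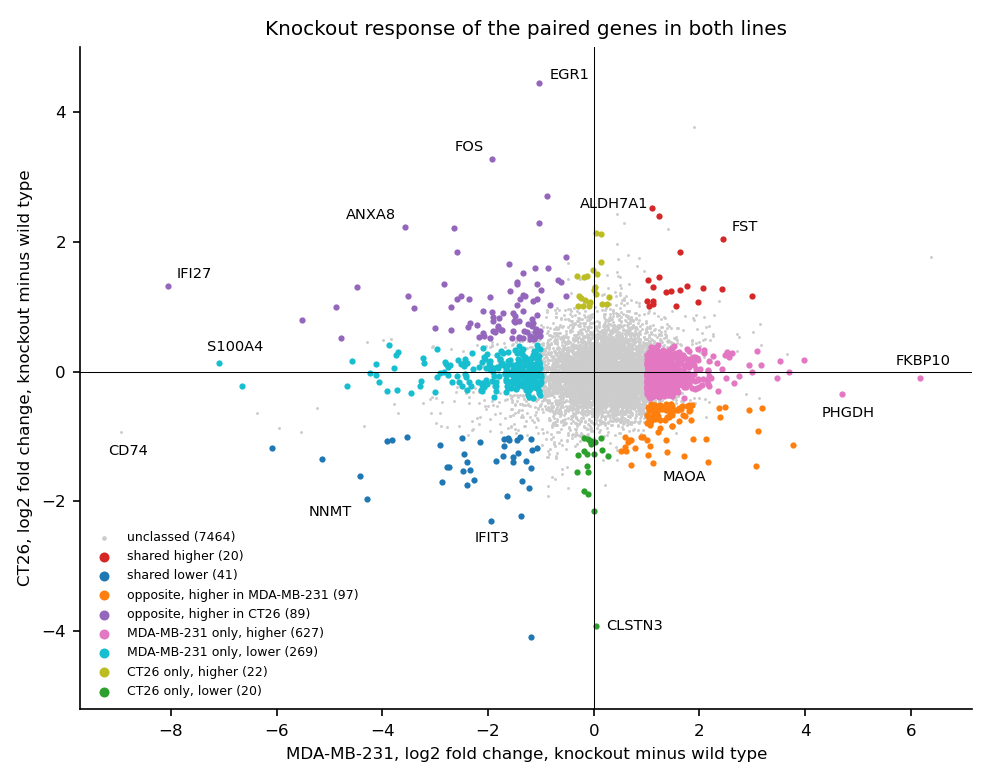
Each point is 1 of the 8649 paired genes, with its log2 fold change (knockout minus wild type) in MDA-MB-231 on the horizontal axis and in CT26 on the vertical axis, coloured by class. The cloud is wider along the horizontal axis (SD 0.85 against 0.42), the shared genes sit in the lower left and upper right corners, and IFI27, EGR1 and FOS lie far out in the upper left.

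The shared higher genes were led by FST, which encodes follistatin, a secreted protein that binds and blocks activins. FST (human hg38 chromosome 5, 53480409 to 53487134) was at 9.67, 10.4, 10.2 and 10.8 FPKM in wild type and 61.8, 66.9, 52.96 and 61.8 in knockout MDA-MB-231, a log2 fold change of 2.45 (SE 0.08, adjusted p = 2.47e-08). In CT26 it was at 4.65, 4.94, 4.37 and 3.92 (wild type) and 22.3, 21.2, 19.96 and 22.1 (knockout) FPKM, a log2 fold change of 2.03 (SE 0.07, adjusted p = 2.43e-07). Every knockout library was above every wild type library of its line. The rise was 0.42 (SE 0.11, adjusted p = 0.00259) larger in MDA-MB-231 on the deposited scale, but that difference was 0.13 after upper-quartile scaling (adjusted p = 0.297).

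DUSP1, a phosphatase that switches off MAP kinases, was at 9.21, 10.4, 9.91 and 12.2 FPKM in wild type and 38.6, 39.2, 36.02 and 36.99 in knockout MDA-MB-231. In CT26 the values were 11.9, 10.6, 9.68 and 11.8 (wild type) and 27.2, 26.6, 27.5 and 33.8 (knockout). Neither line's groups overlapped, and the log2 fold changes were 1.77 (SE 0.08, adjusted p = 2.45e-07) and 1.31 (SE 0.09, adjusted p = 8.25e-06). The difference of 0.45 (SE 0.13, adjusted p = 0.00432) fell to 0.16 after upper-quartile scaling (adjusted p = 0.250). DUSP1 belongs with 3 other negative regulators or readouts of that pathway among the shared higher genes: KLF2 (log2 fold changes 1.101 and 2.53 in MDA-MB-231 and CT26), the ERK phosphatase DUSP5 (1.97 and 1.07) and the feedback inhibitor SPRY4 (1.11 and 1.04).

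ALDH7A1, an aldehyde dehydrogenase of lysine breakdown, rose further in CT26. With the lowest and highest of the 4 wild type and then of the 4 knockout libraries given, as in all ranges that follow, it went from 47.8–59.8 to 108–148 FPKM in MDA-MB-231 and from 2.92–3.74 to 18.5–23.7 in CT26, with log2 fold changes of 1.23 and 2.395 and a difference of -1.16 (SE 0.14, adjusted p = 1.65e-06). TKFC, a triose kinase, rose further in MDA-MB-231, from 6.79–11.4 to 44.7–64.8 FPKM against 5.25–7.39 to 15.8–17.01 in CT26, a difference of 1.15 (SE 0.19, adjusted p = 3.52e-05). For the sulfatase gene ARSJ the log2 fold changes were 1.24 and 1.46, and for TMCO6 they were 1.47 and 1.23. Their differences of -0.22 (SE 0.13, adjusted p = 0.144) and 0.24 (SE 0.11, adjusted p = 0.0707) did not pass the test as deposited. After upper-quartile scaling that of ARSJ was -0.48 (adjusted p = 0.00292). That of TMCO6 was -0.04 after upper-quartile scaling. It passed the limma test with a pseudocount of 5 (0.43, adjusted p = 1.38e-04) and after window centring (0.32, adjusted p = 0.0193). The cytokine IL11 was also shared, at 2.99 and 1.16.

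Interferon-stimulated genes made up 9 of the 41 shared lower genes, and the transcription factor IRF7, which amplifies the interferon response, and B2M, the invariant chain of MHC class I, were 2 more. IFIT3 fell in both lines, while IFI27 fell in MDA-MB-231 and rose in CT26. No mouse promoter was searched, so the sequences here do not bear on the rise of IFI27 in CT26. The human promoters of IFIT3 and IFI27 are shown because both hold the same kind of interferon response element. They are the 250 bases before the first start listed for the human gene in RefSeq (GRCh38.p14), read 5′ to 3′ along the gene, with matches to the interferon response element (GAAA, any 2 bases, GAAA, on either strand) in capitals. The window of IFIT3 is chr10:89327747-89327996 (plus strand), with matches starting 156 and 122 bases before the start. That of IFI27 is chr14:94110486-94110735 (plus strand), with matches at 108 and 95 bases.
IFIT3: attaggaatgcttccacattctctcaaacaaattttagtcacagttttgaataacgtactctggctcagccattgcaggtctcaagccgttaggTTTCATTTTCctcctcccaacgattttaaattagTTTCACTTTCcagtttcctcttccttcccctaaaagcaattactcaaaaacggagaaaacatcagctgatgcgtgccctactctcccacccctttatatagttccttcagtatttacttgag
IFI27: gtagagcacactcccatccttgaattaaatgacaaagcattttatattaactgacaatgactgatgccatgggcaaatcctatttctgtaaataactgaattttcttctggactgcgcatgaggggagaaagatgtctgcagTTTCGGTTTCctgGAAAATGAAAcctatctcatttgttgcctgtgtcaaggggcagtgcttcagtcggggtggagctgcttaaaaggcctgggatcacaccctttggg
Such a match stood in 16 of the 30 interferon-stimulated paired genes that had a listed promoter, in 6 of 32 shared lower genes, in 170 of 7120 paired genes and in 3.07% of all 27305 promoters. A match is a description of these letters, and matches to different motifs were counted separately even where they overlap.

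IFIT3, an antiviral protein that binds IFIT1 on foreign RNA, was at 43.1, 46.2, 47.01 and 49.2 FPKM in wild type and 11.2, 11.95, 11.5 and 10.5 in knockout MDA-MB-231. In CT26 it was at 26.9, 20.1, 24.7 and 28.2 (wild type) and 4.15, 4.29, 3.53 and 5.09 (knockout) FPKM. The groups stood apart in both lines, with log2 fold changes of -1.95 (SE 0.06, adjusted p = 3.00e-08) and -2.301 (SE 0.12, adjusted p = 1.92e-06). The difference of 0.35 (SE 0.14, adjusted p = 0.0327) depended on scaling: it was 0.07 after upper-quartile scaling and -0.53 after window centring, and it missed the threshold when any of 7 libraries was left out. The deposited human locus of IFIT3 is shared by 7 genes, so reads of near-identical IFIT genes may be shared too. GBP2, an interferon-induced GTPase, was at 26.2, 36.3, 30.6 and 32.2 (wild type) and 0.348, 0.446, 0.8999 and 0.355 (knockout) FPKM in MDA-MB-231 and at 28.3, 21.7, 27.1 and 30.2 (wild type) and 7.68, 8.76, 6.49 and 9.77 (knockout) in CT26. Its fall was the steeper in MDA-MB-231, with a difference of -2.82 (SE 0.196, adjusted p = 1.16e-09). UBA7, the enzyme that starts ISG15 conjugation, fell from 19.3–24.4 to 2.22–5.18 FPKM and from 21.2–24.4 to 6.04–8.32. The other shared lower interferon genes were IFIT1 (log2 fold changes -2.74 and -1.48), IFI44 (-1.53 and -1.39), OAS2 (-2.91 and -1.13), RSAD2 (-1.703 and -1.15), HERC6 (-1.72 and -1.305) and GBP3 (-2.41 and -1.397). The chemokine gene CXCL10 stood at -1.64 and -1.92, IRF7 at -2.34 and -1.52 and B2M at -1.19 and -1.05.

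Of the 46 listed interferon-stimulated genes 39 were paired and passed the level filter. In MDA-MB-231 34 (87.2%) fell and 3 (7.69%) rose, where 23.7% of all pairs fell and 49.5% rose, and in CT26 33 (84.6%) fell and 4 (10.3%) rose, where 36.5% fell and 22.5% rose. Relative to all pairs, the median log2 fold change of the 39 was -1.96 in MDA-MB-231 and -0.68 in CT26. The difference was lower in MDA-MB-231 for 27 (69.2%) and higher for 5 (12.8%), against 22.1% and 50.1% of all pairs, and 11 and 1 of these exceeded 2-fold. BST2, the membrane tether that holds virions on the cell, had the steepest fall of those that fell in both lines without a 2-fold change in CT26: 123, 124, 121 and 130.0 FPKM in wild type and 0.0842, 1.08, 0.653 and 0.411 in knockout MDA-MB-231, against 765, 715, 687 and 729 (wild type) and 463, 433, 452 and 514 (knockout) in CT26. The difference was -5.74 (SE 0.18, adjusted p = 5.97e-14). ISG15 was among 3 listed genes that were specific to MDA-MB-231, at -3.28 and -0.15, and TOR3A was the only listed one specific to CT26.

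Outside the interferon genes, NNMT, which methylates nicotinamide and draws on the cell's methyl donor, had the largest shared fall among the 41 genes when ranked by its smaller change. It was at 74.4, 82.1, 79.9 and 72.1 FPKM in wild type and 2.11, 4.19, 3.59 and 2.38 in knockout MDA-MB-231. In CT26 the values were 7.91, 8.81, 6.67 and 6.88 (wild type) and 1.24, 0.677, 1.22 and 1.69 (knockout). The log2 fold changes were -4.29 and -1.97, and the difference was -2.32 (SE 0.22, adjusted p = 6.31e-08). SERPINB9, which inhibits granzyme B and so protects cells from cytotoxic lymphocytes, went from 15.1–16.3 to 1.17–1.39 FPKM in MDA-MB-231 and from 6.79–7.05 to 1.27–1.63 in CT26. THBS1, the matrix protein thrombospondin-1, went from 376–424 to 79.2–87.5 and from 28.02–30.7 to 7.101–9.26. In all 3 genes no knockout library reached a wild type library of its line, and the differences of -2.32, -1.16 and -0.596 on the log2 scale passed the test. Only 6 of 33 listed epithelial genes were paired. The keratin gene KRT7 fell from 1326–1404 to 36.6–39.6 FPKM in MDA-MB-231, and in CT26, where it was low, from 2.102–2.94 to 0.0991–0.682. JUP, a junction protein of the desmosome, fell by 3.902 and 1.08 on the log2 scale.

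**Figure D2:**
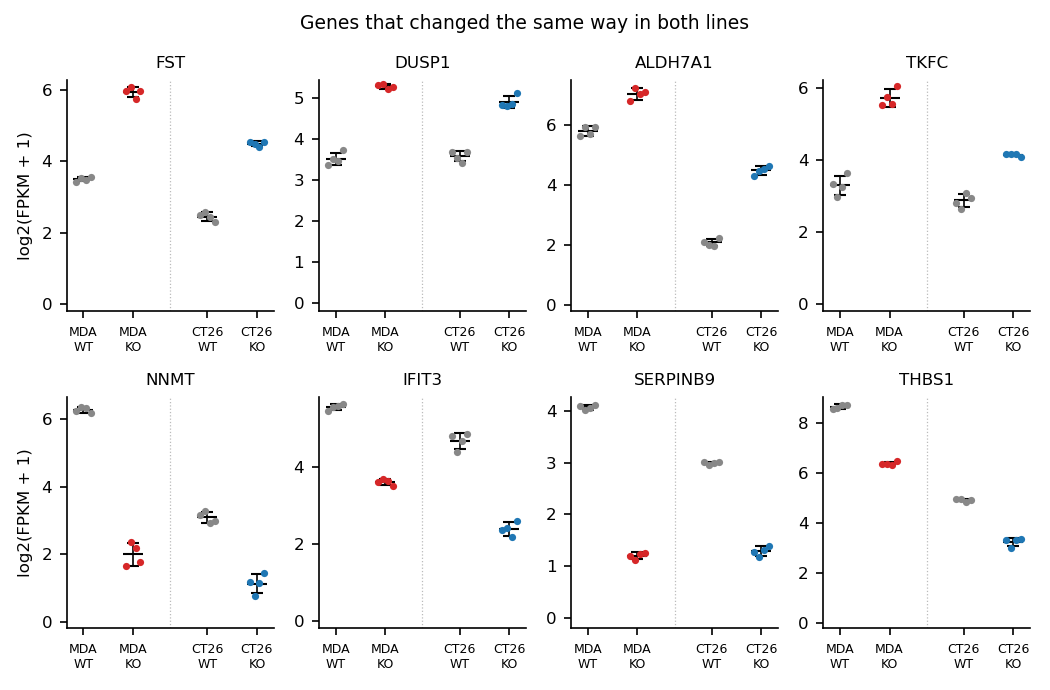
Each panel is 1 gene, the vertical axis is log2(FPKM + 1), each point is 1 library, and the bars give the mean and SD of the 4 libraries of a group (grey, wild type; red, MDA-MB-231 knockout; blue, CT26 knockout). In all 8 genes the knockout libraries of both lines lie on the same side of their wild types. Levels are not comparable between the lines, whose tables were normalized apart.

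A block of X-linked genes that are neighbours in the human genome also fell in both lines. It was noticed after its values were seen, and it was bounded at 47 to 50 Mb of the human X chromosome. Of its 32 paired genes 26 fell in MDA-MB-231 and 31 in CT26, where 23.7% and 36.5% of all pairs fell. None rose in either line, where 49.5% and 22.5% of all pairs rose. In both lines 26 fell, as did 783 of all 8649 pairs. The median log2 fold changes of the 32 were -0.572 and -1.001, against -0.16 and -0.06 for the other 222 paired X-linked genes. It supplied 7 of the 41 shared lower genes and 4 of the 20 CT26-specific lower genes, among them PRAF2 at -1.19 in MDA-MB-231 and -4.08 in CT26 (difference 2.89, adjusted p = 1.81e-11), CCDC120 at -2.39 and -1.75, and EBP, an enzyme of cholesterol synthesis, at -1.45 and -1.05. Its neighbour TFE3 was at -0.75 and -1.08. The mouse counterparts of all 32 also lie on the X chromosome in the deposited mouse table, but not in 1 block. Those of UXT and FTSJ1, which follow each other among the human pairs, start at 20933395 and 8238668. Whether the DNA of this region differed between knockout and wild type cells was not tested.

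Among the genes that moved in opposite directions, IFI27 had the largest difference named. IFI27 (human hg38 chromosome 14, 94104836 to 94116698), a mitochondrial protein induced by type I interferon, was at 299, 327, 300.1 and 318 FPKM in wild type and 0.229, 0.294, 0 and 0.216 in knockout MDA-MB-231. In CT26 it was at 80.5, 81.9, 73.5 and 70.1 in wild type and 186, 194, 201 and 182 in the knockout. It was nearly lost in the human knockout and rose in every mouse knockout library, with log2 fold changes of -8.05 (SE 0.09, adjusted p = 8.96e-11) and 1.31 (SE 0.06, adjusted p = 7.77e-07). The difference was -9.36 (SE 0.103, adjusted p = 1.01e-19). IFITM1, a membrane protein that blocks virus entry, moved likewise, at -4.48 and 1.31, although its difference had a wide SE of 1.24. Both went against the direction of most listed interferon genes in CT26.

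Immediate early genes supplied 6 of the 89 genes of this class. The human promoter of EGR1 is shown because this gene had the largest rise of the group in CT26. In MDA-MB-231, the line this sequence belongs to, EGR1 fell, and no mouse promoter was searched. The window is chr5:138465229-138465478 (plus strand, RefSeq, GRCh38.p14), with 2 matches to the CArG box in capitals, which start 105 and 83 bases before the start. The CArG box is the sequence that serum response factor binds.
EGR1: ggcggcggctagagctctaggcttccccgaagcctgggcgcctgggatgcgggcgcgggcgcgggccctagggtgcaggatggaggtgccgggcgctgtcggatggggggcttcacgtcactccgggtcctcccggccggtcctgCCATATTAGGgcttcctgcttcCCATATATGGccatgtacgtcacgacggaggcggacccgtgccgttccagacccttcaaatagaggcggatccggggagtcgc
A CArG box stood in 2 of the 23 listed immediate early and ERK feedback genes that had a promoter and in 1.14% of all promoters. By class, it stood in 2 of 69 genes opposite and higher in CT26 and in 4 of 84 opposite and higher in MDA-MB-231. The 250 bases before the listed start of FOS held none, and bases further upstream were not searched.

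EGR1, a zinc finger transcription factor, was at 5.71, 8.71, 6.704 and 8.53 FPKM in wild type and 2.71, 3.05, 2.98 and 3.47 in knockout MDA-MB-231. In CT26 it was at 8.701, 8.22, 8.76 and 8.09 (wild type) and 201, 179, 234 and 206 (knockout). The log2 fold changes were -1.04 (SE 0.14, adjusted p = 1.35e-04) and 4.44 (SE 0.08, adjusted p = 2.30e-08), and the difference was -5.48 (SE 0.15, adjusted p = 1.68e-14). FOS, the partner of JUN proteins in the AP-1 factor, was at 13.1, 17.7, 13.96 and 21.2 (wild type) and 3.59, 4.67, 2.41 and 3.78 (knockout) FPKM in MDA-MB-231 and at 0.393, 0.778, 0.656 and 0.476 (wild type) and 12.1, 12.9, 14.4 and 17.9 (knockout) in CT26. For both genes the knockout was the lower group in MDA-MB-231 and the higher group in CT26, without overlap. The difference for FOS was -5.197 (SE 0.23, adjusted p = 4.83e-12).

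Of 47 listed immediate early and ERK feedback genes 35 were paired. In CT26 30 (85.7%) rose and 2 (5.71%) fell, against 22.5% and 36.5% of all pairs. In MDA-MB-231 15 (42.9%) rose and 14 (40%) fell, against 49.5% and 23.7%. Upper-quartile scaling gave 13 (37.1%) and 17 (48.6%) there, against 37.7% and 33% of all pairs. The 6 opposite ones were EGR1, FOS, FOSL2 (-1.14 and 0.75), JUNB (-1.004 and 1.26), IER3 and ZFP36 (-1.18 and 0.82), a protein that destabilizes cytokine transcripts. The 4 shared higher ones are named above, IER2 and SPRY2 were specific to CT26, and ETV4 was specific to MDA-MB-231 in the higher and IER5 in the lower direction. The list median relative to all pairs was -0.17 in MDA-MB-231 and 0.86 in CT26.

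CDKN1A, which encodes the cell cycle inhibitor p21, was at 90.5, 95.6, 101 and 99.7 FPKM in wild type and 8.78, 7.38, 6.98 and 7.09 in knockout MDA-MB-231, and at 72.5, 65.4, 70.04 and 71.1 (wild type) and 155, 157, 157 and 158 (knockout) in CT26. It fell to well below every wild type library in the human line and rose above all of them in the mouse line, with a difference of -4.67 (SE 0.09, adjusted p = 9.43e-17). PLK2, a polo-like kinase that p53 can induce, went the same way, from 558–619 to 201–242 and from 27.99–33.3 to 58.03–62.3 FPKM. Of 22 paired p53 targets of 28 listed, 8 (36.4%) rose and 7 (31.8%) fell in MDA-MB-231 (49.5% and 23.7% of all pairs). These became 7 (31.8%) and 10 (45.5%) after upper-quartile scaling, against 37.7% and 33%. In CT26 12 (54.5%) rose and 1 (4.55%) fell (22.5% and 36.5% of all pairs).

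ANXA8, a calcium-dependent membrane-binding annexin with a near-identical human copy that may share its reads, was at 17.2–19.1 FPKM in wild type and 0.489–1.04 in knockout MDA-MB-231, and at 1.39–1.58 (wild type) and 9.78–11.6 (knockout) in CT26. The log2 fold changes were -3.58 and 2.23. CDC42BPG, a kinase that acts downstream of CDC42, was at -2.64 and 2.22, and BSCL2, the lipid droplet protein seipin, at -2.59 and 1.85. ARRDC3, an arrestin-related regulator of receptor trafficking, was at -1.45 and 1.39. RARRES2, which encodes the chemoattractant chemerin, went from 48.4–60.2 to 0.0805–0.308 FPKM in MDA-MB-231 and, at low levels, from 0.422–0.935 to 1.42–2.87 in CT26. Of the leukocyte marker list only CD14, the lipopolysaccharide co-receptor, was in this class. It went from 2.29–3.18 to 0.427–0.944 and from 16.01–18.99 to 49.6–56.5 FPKM.

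In the reverse class, MAOA, the mitochondrial enzyme that oxidizes serotonin and noradrenaline, was at 6.16, 8.64, 9.18 and 9.91 FPKM in wild type and 18.1, 19.6, 22.1 and 17.5 in knockout MDA-MB-231. In CT26 it was at 21.9, 21.9, 21.7 and 24.4 (wild type) and 8.12, 7.66, 7.55 and 8.22 (knockout). The knockout libraries were all higher in the human line and all lower in the mouse line, and the difference was 2.52 (SE 0.15, adjusted p = 1.92e-10). CCNB1IP1, a ubiquitin ligase of cyclin B, was at 16.3, 19.3, 18.2 and 22.01 (wild type) and 61.3, 69.8, 63.4 and 59.8 (knockout) FPKM in MDA-MB-231 and at 28.8, 29.7, 28.7 and 31.05 (wild type) and 11.8, 10.8, 13.9 and 9.56 (knockout) in CT26, with a difference of 2.998 (SE 0.14, adjusted p = 5.89e-12). ABHD14B, a hydrolase, went from 23.3–26.7 to 61.97–69.95 FPKM and from 26.9–31.9 to 11.2–13.96. The chromatin reader SP140 went from 1.44–2.02 to 20.2–24.5 and from 15.2–16.7 to 6.25–9.61. Of 15 paired mesenchymal genes the difference was higher in MDA-MB-231 for 9 (60%) and lower for 5 (33.3%), against 50.1% and 22.1% of all pairs, and the list median relative to all pairs was 0.105. The repressor SNAI2 was opposite at -1.06 and 1.12. FSCN1, which bundles actin in filopodia, rose from 10.6–11.5 to 105–116 FPKM in MDA-MB-231 and fell from 349–388 to 237–258 in CT26. ANKRD44, a regulatory subunit of protein phosphatase 6, was at log2 fold changes of 2.16 and -1.399. The small nucleolar RNA SNORA41 was listed at 0 in 2 of 4 wild type MDA-MB-231 libraries and at 34.3–54.03 FPKM in the knockout, and FPKM of so short a transcript varied widely, at 14.8–57.8 in wild type CT26.

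**Figure D3:**
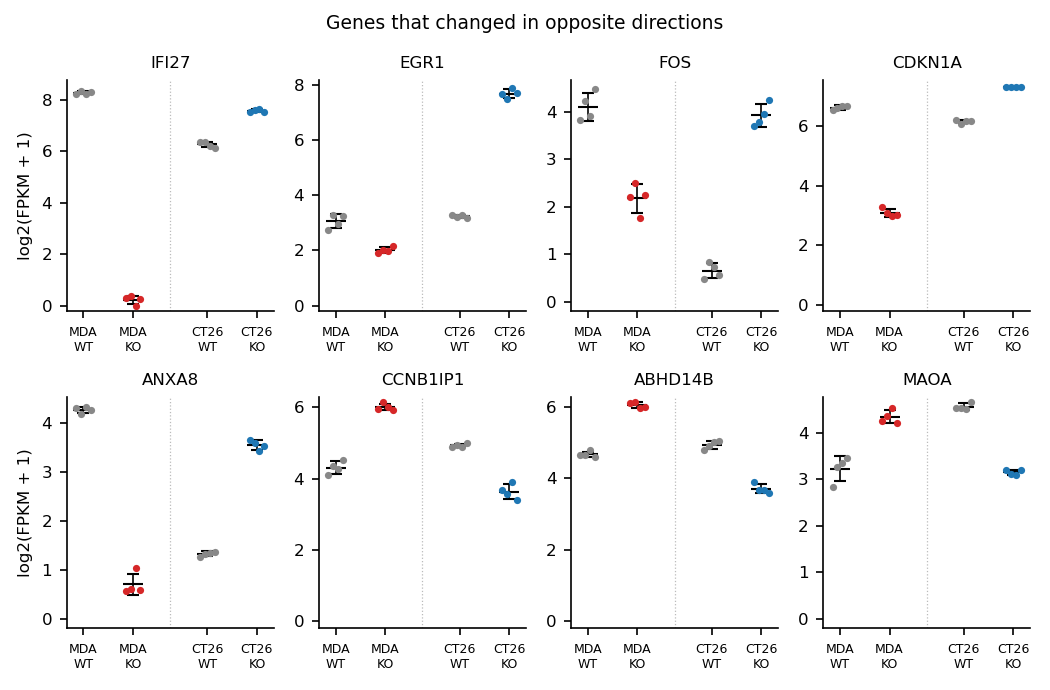
Each panel is 1 gene, the vertical axis is log2(FPKM + 1), each point is 1 library, and the bars give the mean and SD of the 4 libraries of a group (grey, wild type; red, MDA-MB-231 knockout; blue, CT26 knockout). IFI27, EGR1, FOS, CDKN1A and ANXA8 were lower in the MDA-MB-231 knockout and higher in the CT26 knockout, and CCNB1IP1, ABHD14B and MAOA were the reverse.

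Genes specific to MDA-MB-231 were the largest of the classes. FKBP10 (human hg38 chromosome 17, 41812680 to 41823217), a chaperone of collagen in the endoplasmic reticulum, was at 0.964, 0.456, 0.7996 and 0.326 FPKM in wild type and 113, 112, 114 and 125 in the knockout. In CT26 it was at 86.02, 86.2, 85.9 and 92.3 (wild type) and 79.4, 80.04, 85.1 and 83.2 (knockout). It was below 1 FPKM in every wild type MDA-MB-231 library, with log2 fold changes of 6.18 (SE 0.13, adjusted p = 2.43e-09) and -0.095 (SE 0.04, adjusted p = 0.05604). PHGDH, the first enzyme of serine synthesis, was at 2.29, 0.518, 0.773 and 1.84 (wild type) and 52.2, 58.7, 67.8 and 52.1 (knockout) FPKM in MDA-MB-231 and at 353, 345, 321 and 369.9 (wild type) and 269, 281, 258 and 283 (knockout) in CT26. In CT26 its fall was small but passed the test, at -0.35 (SE 0.05, adjusted p = 4.46e-04). ENG, the TGF-beta co-receptor endoglin, went from 0.416–0.9751 to 24.3–28.4 FPKM in MDA-MB-231 and from 1.48–1.65 to 1.802–1.99 in CT26. APBB1IP, an adaptor that links Rap1 to integrin activation, went from 1.27–1.92 to 30.1–33.3 in MDA-MB-231, and its groups overlapped in CT26 at 26.04–27.7 (wild type) and 25.99–27.9 (knockout). PLCB1, a phospholipase C, was listed at 0 in all 4 wild type MDA-MB-231 libraries. Its knockout values were 4.28, 4.73, 128 and 3.56 FPKM, so replicate 3 stood far above the others, and without it the fitted difference went from 3.36 to 2.201, still past the test.

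The steepest MDA-MB-231-specific fall among named genes was that of S100A4, a calcium-binding protein linked to cell motility. It was at 1265, 1448, 1339 and 1335 FPKM in wild type and 8.38, 11.9, 9.45 and 6.58 in the knockout, and in CT26 at 4561, 4411, 4257 and 4479.9 (wild type) and 4820.3, 4993, 4673 and 4823 (knockout). Its difference was -7.21 (SE 0.15, adjusted p = 3.25e-16). CFB, complement factor B, went from 112–119 to 0–0.574 FPKM in MDA-MB-231 and overlapped in CT26 at 1.77–2.35 (wild type) and 1.48–1.97 (knockout). COL4A5, a basement membrane collagen chain, went from 22.9–27.6 to 0–0.1504 in MDA-MB-231 and from 18.6–19.2 to 15.2–17.1 in CT26. Log2 fold changes in the 2 lines were -4.58 and 0.16 for CDA, which deaminates cytidine, and -4.23 and -0.02 for NEDD9, a focal adhesion scaffold. CD74, the MHC class II invariant chain, fell in both lines. It went from 1101–1168 to 0.786–2.01 FPKM in MDA-MB-231 and from 1.35–2.06 to 0.282–0.628 in CT26, a difference of -8.01 (SE 0.198, adjusted p = 3.48e-15).

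Genes specific to CT26 were few. CLSTN3, a cadherin-related membrane protein, was at 29.5, 21.6, 27.2 and 32.1 FPKM in wild type and 0.822, 0.901, 0.806 and 0.994 in knockout CT26. In MDA-MB-231 it was at 13.5, 9.48, 18.5 and 11.8 (wild type) and 11.7, 16.05, 14.2 and 11.9 (knockout), groups that overlapped. Its log2 fold change was -3.91 (SE 0.11, adjusted p = 1.68e-07) in CT26, and its difference was 3.95 (SE 0.22, adjusted p = 8.21e-11). WDR45, an autophagy protein of that X-linked block whose deposited locus is also that of PRAF2, fell from 36.2–44.4 to 8.03–12.4 FPKM in CT26. ID3, an inhibitor of helix-loop-helix factors, fell from 39.4–46.8 to 12.4–16.6, and its smaller MDA-MB-231 change of -0.32 also passed the test. GPAT3, which starts triglyceride synthesis, and TOR3A, an ATPase of the endoplasmic reticulum, had log2 fold changes of -1.55 and -1.46 in CT26.

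EREG, an EGF receptor ligand, rose in CT26 from 8.43, 8.64, 8.18 and 8.45 to 25.1, 24.1, 24.3 and 26.001 FPKM. In MDA-MB-231 it was at 15.04, 14.3, 15.8 and 14.8 (wild type) and 12.6, 13.3, 13.5 and 12.97 (knockout), and that fall was small, at -0.18 (SE 0.06, adjusted p = 0.0235). The immediate early gene IER2 rose from 29.7–32.9 to 81.5–104 FPKM in CT26 and overlapped in MDA-MB-231 at 28.5–33.6 (wild type) and 30.4–38.8 (knockout). The transcription factor SOX4 rose from 1.91–2.23 to 7.3003–7.79 and the matrix protein EMILIN2 from 1.07–1.76 to 5.62–6.07. TMEM203, a membrane protein of the endoplasmic reticulum, rose from 4.52–6.56 to 15.9–18.98. The difference from MDA-MB-231 was -1.44 for IER2, -1.599 for SOX4, -1.59 for EMILIN2 and -1.78 for TMEM203 on the log2 scale. After upper-quartile scaling 12 of the 22 CT26-specific higher genes and 6 of the 20 lower ones stayed in their class.

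**Figure D4:**
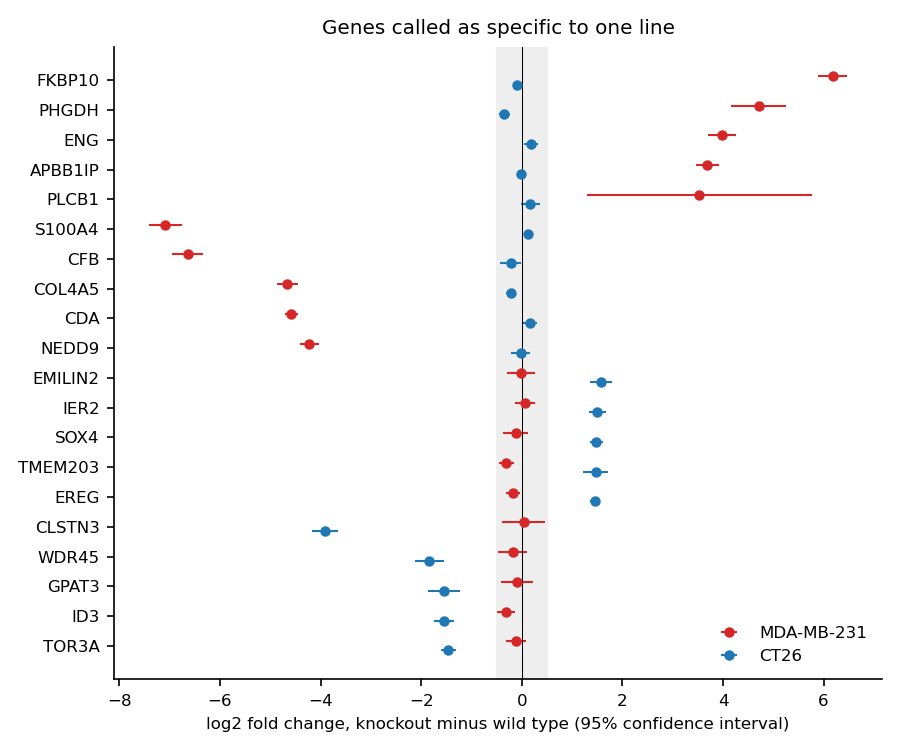
The log2 fold change (knockout minus wild type) of 20 line-specific genes is given for MDA-MB-231 (red) and CT26 (blue), with 95% confidence intervals, and the grey band spans -0.5 to 0.5. The first 10 genes lie far from 0 in red and in the band in blue, and the last 10 are the reverse. PLCB1 has a wide interval, and its knockout replicate 3 in MDA-MB-231 stood apart at 128 FPKM.

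Genes that nuclear factor kappa B controls had the widest median difference between the lines of all lists with at least 5 paired members. Of 32 listed 22 were paired, and 18 (81.8%) fell and 1 (4.55%) rose in MDA-MB-231, against 23.7% and 49.5% of all pairs. In CT26 10 (45.5%) fell and 4 (18.2%) rose, near the 36.5% and 22.5% of all pairs. The difference was lower in MDA-MB-231 for 16 (72.7%), with 13 of these above 2-fold, and higher for 3 (13.6%), against 22.1% and 50.1%. The median difference relative to all pairs was -2.23. CXCL1, a neutrophil chemokine, was at 49.6, 41.3, 41.3 and 41.5 FPKM in wild type and 0.935, 0.493, 0.726 and 0.353 in knockout MDA-MB-231, and at 6.27, 5.43, 5.86 and 5.22 (wild type) and 8.28, 7.87, 8.21 and 10.1 (knockout) in CT26. IER3, a survival factor, went from 498–533 to 175–183 and from 74.9–82.6 to 127–139. Both fell in the human line and rose in the mouse line. The feedback inhibitors NFKBIA (-2.05 and 0.197), NFKBIE (-2.57 and 0.18) and TNFAIP3 (-1.77 and 0.19) were specific to MDA-MB-231, and BCL3, an IkappaB family co-activator, was shared at -3.54 and -1.001.

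Most glycolysis and hypoxia genes fell in MDA-MB-231 and rose in CT26. Of 41 listed 29 were paired, and 21 (72.4%) fell and 7 (24.1%) rose in MDA-MB-231, against 23.7% and 49.5% of all pairs. In CT26 18 (62.1%) rose and 2 (6.9%) fell, against 22.5% and 36.5%. The list median relative to all pairs was -0.99 and 0.26. SLC16A3, the lactate exporter MCT4, was at 416, 387, 429.6 and 441 FPKM in wild type and 106, 87.3, 105 and 91.6 in knockout MDA-MB-231, and at 25.5, 26.6, 29.004 and 30.5 (wild type) and 55.4, 52.7, 53.3 and 53.8 (knockout) in CT26. VEGFA, the angiogenic growth factor, fell from 214–243 to 24.4–30.6 and rose from 83.05–89.2 to 104–116 FPKM. LDHA was at -1.29 and 0.16, SLC2A1, the glucose transporter GLUT1, at -1.43 and 0.19 and BNIP3, a mitophagy receptor, at -1.41 and 0.78.

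Matrix and integrin genes fell in both lines by count but further in MDA-MB-231. Of 66 listed 38 were paired, and 31 (81.6%) fell and 5 (13.2%) rose in MDA-MB-231 (23.7% and 49.5% of all pairs). In CT26 23 (60.5%) fell and 7 (18.4%) rose (36.5% and 22.5%), with medians of -1.28 and -0.17 relative to all pairs. COL5A1, a fibrillar collagen chain, fell from 138–145 to 8.42–10.8 FPKM in MDA-MB-231 and rose from 36.1–38.3 to 40.4–46.6 in CT26. COL18A1 was shared lower at -2.49 and -1.03, and the laminin chain LAMB1 was opposite at -1.16 and 0.702. Among 29 paired TGF-beta and YAP targets the difference was higher in MDA-MB-231 for 13 (44.8%) and lower for 12 (41.4%), against 50.1% and 22.1% of all pairs. Upper-quartile scaling turned these to 10 (34.5%) and 13 (44.8%), against 35% and 33.9%. ANKRD1, a YAP readout, rose from 35.1–38.4 to 310.4–342 FPKM in MDA-MB-231 and from 29.9–35.2 to 37.1–40.9 in CT26, and F3, tissue factor, fell from 648–697 to 74.1–88.5 in MDA-MB-231 and rose from 12.2–13.3 to 15.5–18.3 in CT26.

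Most serine, one-carbon and ATF4 genes rose in MDA-MB-231. Of 32 paired genes 24 (75%) rose and 4 (12.5%) fell, against 49.5% and 23.7% of all pairs. In CT26 7 (21.9%) rose and 16 (50%) fell, against 22.5% and 36.5%. The difference was higher in MDA-MB-231 for 23 (71.9%), 11 of them above 2-fold, and lower for 4 (12.5%), against 50.1% and 22.1%, and its median relative to all pairs was 0.49. SHMT2, the mitochondrial serine hydroxymethyltransferase, rose from 72.3–80.7 to 226–249 FPKM in MDA-MB-231 and fell from 252–265 to 228–245 in CT26. TRIB3, a stress-induced pseudokinase, was opposite, from 5.71–6.76 to 18.8–22.2 and from 63.9–72.1 to 37.2–43.5. So was PSPH, the last enzyme of serine synthesis, at 0.67 and -1.06. ASNS was at 1.48 and -0.37 and PSAT1 at 1.61 and 0.199. In the reverse sense, the listed genes VLDLR and NUPR1 were opposite, VLDLR at -1.81 and 0.68 and NUPR1 at -1.35 and 0.52.

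Among lipid synthesis genes, more of the cholesterol list than of all pairs had a response that was higher in MDA-MB-231. Of 27 paired cholesterol genes 16 (59.3%) rose and 5 (18.5%) fell in MDA-MB-231 (49.5% and 23.7% of all pairs), and 8 (29.6%) rose and 11 (40.7%) fell in CT26 (22.5% and 36.5%). The CT26 counts were 11 (40.7%) and 7 (25.9%) after upper-quartile scaling, against 29.9% and 27% of all pairs. Those of MDA-MB-231 were 16 (59.3%) and 6 (22.2%), against 37.7% and 33%. The difference was higher in MDA-MB-231 for 20 (74.1%) and lower for 6 (22.2%), against 50.1% and 22.1% of all pairs. After that scaling these were 15 (55.6%) and 6 (22.2%), against 35% and 33.9%. The median difference of the list relative to all pairs was 0.39. SREBF2, the transcription factor that drives the pathway, went from 10.7–12.4 to 41.7–42.6 FPKM in MDA-MB-231 and overlapped in CT26 at 83.4–93.02 (wild type) and 91.1–97.4 (knockout). ACAT2, which condenses acetyl-CoA at the start of that pathway, was at 1.66 and -0.19. Among 18 paired fatty acid synthesis genes the difference was higher in MDA-MB-231 for 11 (61.1%) and lower for 3 (16.7%), against 50.1% and 22.1% of all pairs. The desaturases FADS2 and FADS1 had log2 fold changes of 2.53 and 1.59 in MDA-MB-231 and 0.31 and 0.06 in CT26. FASN was at 1.86 and -0.06.

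Growth-related lists had medians near that of all pairs, and their counts, like those of all pairs, depended on scaling. Of 43 paired G1/S and DNA replication genes 29 (67.4%) rose and 3 (6.98%) fell in MDA-MB-231 (49.5% and 23.7% of all pairs). In CT26 8 (18.6%) rose and 18 (41.9%) fell, near the 22.5% and 36.5% of all pairs. The difference was higher in MDA-MB-231 for 31 (72.1%) and lower for 1 (2.33%) (50.1% and 22.1%). These became 21 (48.8%) and 6 (14%) after upper-quartile scaling, against 35% and 33.9% of all pairs. The median difference relative to all pairs was 0.199. FEN1, the flap endonuclease of lagging-strand synthesis, went from 78.1–89.7 to 186–212 FPKM in MDA-MB-231 and overlapped in CT26 at 42.3–48.8 (wild type) and 40.1–44.4 (knockout). MCM6, a subunit of the replicative helicase, was at 0.47 and -0.72, both past the test. Of 38 paired G2/M genes 20 (52.6%) had a higher difference, near the 50.1% of all pairs, and 4 (10.5%) a lower one, against 22.1%. Upper-quartile scaling gave 14 (36.8%) and 14 (36.8%), near the 35% and 33.9% of all pairs. The median relative to all pairs was -0.07. BUB3, a spindle checkpoint protein, was at 1.14 and -0.07 and the motor KIF11 at 0.58 and -0.61. Of 76 paired ribosomal protein genes 58 (76.3%) had a higher difference in MDA-MB-231 and 3 (3.95%) a lower one, against 50.1% and 22.1% of all pairs. With upper-quartile scaling there were 38 (50%) and 21 (27.6%), against 35% and 33.9%. The median relative to all pairs was 0.13. Many ribosomal protein genes have near-identical pseudogene copies, so their values are uncertain. RPL4 was at 1.304 and 0.02, and RPL37A at 1.001 and -0.24.

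Of 55 paired respiratory chain genes encoded in the nucleus 33 (60%) had a higher difference and 9 (16.4%) a lower one, close to the 50.1% and 22.1% of all pairs. The counts were 25 (45.5%) and 17 (30.9%) after upper-quartile scaling, against 35% and 33.9%. The median difference of the list relative to all pairs was 0.05. NDUFB9 of complex I was at 1.21 and -0.21 and CYC1 of complex III at 0.55 and -0.49. Of 6 paired mitochondrially encoded genes the difference passed for 2 that fell further in MDA-MB-231, MT-ND6 (1459–1752 to 329–587 FPKM) and MT-ND5 (1314–1534 to 356–599), and for 1 in the other direction. Human MT-ND5 and MT-ND6 are neighbours on opposite strands. No source used here says whether counting used strand, so the value of one may hold some reads of the other.

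Most genes of MHC class I antigen processing fell in both lines. Of 15 paired ones 13 (86.7%) fell in MDA-MB-231 and 11 (73.3%) in CT26, against 23.7% and 36.5% of all pairs. TAP1, the peptide transporter subunit, fell from 48.3–53.9 to 7.77–9.22 FPKM in MDA-MB-231 and from 35.8–37.8 to 29.2–31.9 in CT26. CALR, a chaperone of class I folding, fell from 1050.0–1221 to 566–622 and rose from 497–551 to 809–876. The endoplasmic reticulum proteins HSPA5 (-1.07 and 0.405) and PDIA4 (-1.34 and 0.35) had the same signs as CALR. SOCS1, the feedback inhibitor of JAK signalling, fell from 6.95–9.02 to 0.0672–0.2603 FPKM in MDA-MB-231 and from 6.73–7.36 to 5.14–5.77 in CT26. Of 24 paired interferon pathway components 13 (54.2%) fell and 5 (20.8%) rose in MDA-MB-231, against 23.7% and 49.5% of all pairs. In CT26 11 (45.8%) fell and 5 (20.8%) rose, near the 36.5% and 22.5% of all pairs. With upper-quartile scaling 9 (37.5%) fell and 8 (33.3%) rose there, against 27% and 29.9%. TYK2, a JAK kinase, was at -0.74 and 0.32. Of 7 paired MHC class II pathway genes the difference was lower in MDA-MB-231 for 5 (71.4%), against 22.1% of all pairs. CTSL, cathepsin L, was at -2.50 and -0.22.

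Signals that reach other cells were mostly lower in the MDA-MB-231 response. Of 17 paired cytokines and growth factors the difference was lower in MDA-MB-231 for 12 (70.6%) and higher for 2 (11.8%), and of 8 paired checkpoint ligands other than PD-L1 for 5 (62.5%) and 2 (25%), against 22.1% and 50.1% of all pairs. The medians relative to all pairs were -1.56 and -1.202. CSF1, the macrophage growth factor, fell in both lines, from 157, 146, 155 and 162 to 5.65, 7.496, 6.34 and 7.39 FPKM in MDA-MB-231 and from 157, 157, 149 and 152 to 86.4, 85.1, 87.6 and 82.8 in CT26. The groups did not overlap in either line, and the difference was -3.51 (SE 0.09, adjusted p = 6.61e-15). CD47, the ligand that restrains phagocytosis, was at -1.32 and -0.09, and LGALS3, galectin-3, at -1.68 and -0.03. Among 28 paired partners of PD-L1 trafficking and stability the difference was higher in MDA-MB-231 for 19 (67.9%) and lower for 4 (14.3%), against 50.1% and 22.1% of all pairs. They numbered 14 (50%) and 6 (21.4%) after upper-quartile scaling, against 35% and 33.9%. CMTM3, of the protein family whose member CMTM6 stabilizes PD-L1, rose from 9.69–13.6 to 59.9–68.3 in MDA-MB-231 and fell from 48.9–53.9 to 37.9–44.2 in CT26. Among 29 paired death regulators 6 (20.7%) differences were higher and 7 (24.1%) lower, against 50.1% and 22.1% of all pairs. Upper-quartile scaling made these 5 (17.2%) and 14 (48.3%), against 35% and 33.9%. CFLAR, which blocks caspase-8, was at -1.39 and 0.36, and the TRAIL receptor gene TNFRSF10B at -0.42 and 0.66. Of 27 paired NRF2 and glutathione genes 15 (55.6%) differences were higher and 9 (33.3%) lower (10 and 11 after upper-quartile scaling). Of 33 paired unfolded protein and heat shock genes these were 14 (42.4%) and 13 (39.4%) (11 and 18 after that scaling). For both lists the shares of all pairs were 50.1% and 22.1%, and 35% and 33.9% after that scaling. GSTM1 was at -4.29 and 0.46, with near-identical GSTM copies that may share reads, EPHX1, a microsomal epoxide hydrolase, at -1.72 and 0.101, and the small heat shock protein gene HSPB8 at -2.75 and -0.05.

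**Figure D5:**
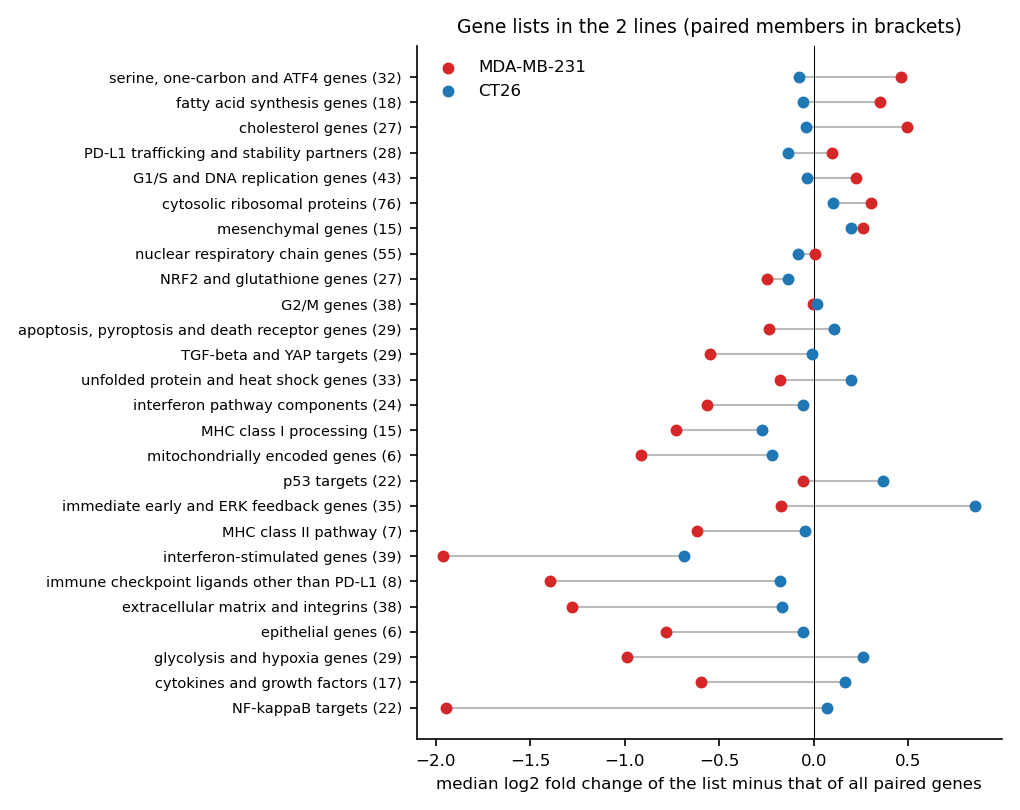
For each list with at least 5 paired members (number in brackets), the median log2 fold change minus that of all paired genes is given for MDA-MB-231 (red) and CT26 (blue). The widest gaps are those of the NF-kappaB targets (-1.95 and 0.07), the interferon-stimulated genes (-1.96 and -0.68) and the glycolysis and hypoxia genes (-0.99 and 0.26).

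Markers of other cell types moved with genotype in both lines, and their part in the results was not tested. The summed FPKM of 25 leukocyte markers was 159.9 to 168 in wild type and 205 to 229 in knockout MDA-MB-231, led by CD68 and, in the knockout, LCP1, an actin-bundling protein at 0.0714 to 0.197 FPKM in wild type and 67.6 to 82.1 in knockout libraries. Of these 25, 8 were listed at 0 in all wild type and 15 in all knockout libraries of MDA-MB-231. In CT26 the sum was 21.2 to 25.7 and 54.3 to 59.7, led by Cd14, and of 22 markers 12 were at 0 in all wild type and 12 in all knockout libraries. The 18 fibroblast and endothelial markers had summed FPKM of 18.96 to 23.7 in wild type and 30.9 to 36.1 in knockout MDA-MB-231. There the mean of ROBO4 rose from 4.85 to 24.02 FPKM, while COL1A1, the leading marker in wild type, fell from 9.81 to 3.29. In CT26, where Col1a2 led, the sums were 285 to 289.5 and 374 to 412. The 22 neural, melanocyte and muscle markers had sums of 44.6 to 50.5 in wild type and 134 to 142 in knockout MDA-MB-231, led by TUBB3, and in CT26 of 25.6 to 28.7 against 68.8 to 71.4, led by Nefm. Of these lists only 6 genes were paired, among them COL1A1 (-1.34 and -0.698), COL1A2 (-0.99 and 0.28) and MITF (2.72 and 0.58), a melanocyte transcription factor. In RNA from bulk cultures fewer cells of a kind and less RNA per cell cannot be told apart.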

How the data were processed

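Total RNA of 16 libraries (4 each of wild type and PD-L1 knockout MDA-MB-231 and CT26) was sequenced. Per the submitters' processing notes, the authors used bcl2fastq 2.18, STAR 2.5.4a, Cufflinks 2.2.1 and Cuffdiff with builds hg38 and mm10, and they deposited FPKM per gene in 1 table per line, with the p-values and q-values of their own comparison, which are not printed here. No source used here states the annotation, strand or settings. Since FPKM of each table were normalized apart, only differences within a table enter any contrast, and no level is compared between lines. Read totals are not in the tables, so depth was read only as a ratio, from low FPKM values.

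Symbols in upper case were paired one to one (12 pairs have date-like symbols), and values were taken as log2(FPKM + 1), a scale that understates changes of genes with low values. limma 3.58.1 (R 4.3.3) with a mean-variance trend was fitted to the 4 group means, two-sided, and the contrast was the knockout minus wild type change in MDA-MB-231 minus that in CT26. Each line was also fitted on its own whole table. P-values were adjusted by Benjamini and Hochberg over all genes of a fit, with a threshold of 0.05, and differences above 2-fold were tested with limma's treat. Every adjusted p printed is from these fits or, where another setting is named, from the same fits under that setting. Tables and figures were made with Python 3.11.15, numpy 2.4.6, pandas 2.3.3 and matplotlib 3.10.9.

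On simulated data with 200 of 8649 genes changed, the difference test recovered 52.5% of changes of 0.5 on the log2 scale. It recovered 95.5% of changes of 1 and 99.5% of 2, and false calls numbered 7, 8 and 6. The simulation drew independent normal noise with 1 spread per gene, and only the MDA-MB-231 knockout changed. It held no shift of all genes, whereas 72.2% of the real pairs were called. Its false calls are thus no error rate for these data. The genes named were CD274, the 5 largest differences in each direction past the 2-fold test, the 5 or 6 leading genes of each class and up to 2 genes per list with the smallest adjusted p of the difference, where leading genes needed a mean of 5 FPKM and groups that did not overlap. Other members of the 29 lists, and the genes of the X-linked block, were named after their values were seen. The rule for pairing, the lists and the tests were chosen with earlier results of these data known. Alternatives were 2 other pseudocounts, 2 other filters, 3 scalings, 2 variance models, a replicate block and leaving out each library. Promoter sequences are those of RefSeq (GRCh38.p14), which listed 7120 of the 8649 genes by human symbol.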

Additional observations from a re-analysis of the deposited data

Results flagged for a closer look

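In 27 of 388 sets of 4 libraries 1 library stood apart from its group by Dixon's criterion, which chance alone gives in about 1 of 20 sets. In wild type MDA-MB-231 the library that stood apart was the highest for BSCL2 in replicate 2 at 75.2 FPKM (others 43.7 to 48.4), ARRDC3 in replicate 3 at 13.9 FPKM (others 9.41 to 9.69) and ID3 in replicate 3 at 90.98 FPKM (others 86.1 to 86.4). So it was in wild type MDA-MB-231 for CXCL1 in replicate 1 at 49.6 FPKM (others 41.3 to 41.5), LGALS3 in replicate 2 at 182 FPKM (others 175 to 176) and PLK2 in replicate 4 at 619 FPKM (others 558 to 566). In wild type MDA-MB-231 the library that stood apart was the lowest for WDR45 in replicate 4 at 77.1 FPKM (others 106 to 109) and F3 in replicate 1 at 648 FPKM (others 688 to 697). In knockout MDA-MB-231 the library that stood apart was the highest for FKBP10 in replicate 4 at 125 FPKM (others 112 to 114), CFB in replicate 3 at 0.574 FPKM (others 0 to 0.0933) and ANXA8 in replicate 3 at 1.04 FPKM (others 0.489 to 0.525). So it was in knockout MDA-MB-231 for ARRDC3 in replicate 4 at 5.89 FPKM (others 2.29 to 2.89), PLCB1 in replicate 3 at 128 FPKM (others 3.56 to 4.73) and TOR3A in replicate 3 at 19.2 FPKM (others 18.8 to 18.9). In knockout MDA-MB-231 the library that stood apart was the lowest for TAP1 in replicate 4 at 7.77 FPKM (others 8.98 to 9.22) and VEGFA in replicate 2 at 24.4 FPKM (others 29.6 to 30.6). In wild type CT26 the library that stood apart was the highest for FKBP10 in replicate 4 at 92.3 FPKM (others 85.9 to 86.2), MAOA in replicate 4 at 24.4 FPKM (others 21.7 to 21.9) and ANKRD1 in replicate 1 at 35.2 FPKM (others 29.9 to 30.6). In wild type CT26 the library that stood apart was the lowest for TMCO6 in replicate 1 at 2.73 FPKM (others 3.01 to 3.05) and NDUFB9 in replicate 3 at 242 FPKM (others 269.8 to 275). In knockout CT26 the library that stood apart was the highest for DUSP1 in replicate 4 at 33.8 FPKM (others 26.6 to 27.5), TRIB3 in replicate 4 at 43.5 FPKM (others 37.2 to 38.1) and CFLAR in replicate 3 at 18.9 FPKM (others 15.3 to 15.9). In knockout CT26 the library that stood apart was the lowest for TKFC in replicate 4 at 15.8 FPKM (others 16.8 to 17.01), THBS1 in replicate 2 at 7.101 FPKM (others 8.95 to 9.26) and IER3 in replicate 2 at 127 FPKM (others 137 to 139).

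The response to knockout differed between the lines by more than 2-fold, as tested, for 75 of the 97 named genes. On the log2 scale the differences above 0 were led by FKBP10 6.27, PHGDH 5.05, SNORA41 4.91, SP140 4.02, CLSTN3 3.95, ENG 3.79, FSCN1 3.76, APBB1IP 3.697 and ANKRD44 3.56. Next came CCNB1IP1 2.998, ANKRD1 2.76, CMTM3 2.65, ABHD14B 2.62, MAOA 2.52, TRIB3 2.37, FADS2 2.22, MITF 2.14 and ACAT2 1.85. After these came SHMT2 1.76, SREBF2 1.67, WDR45 1.65, FADS1 1.53, NDUFB9 1.42, TOR3A 1.34, FEN1 1.33, RPL4 1.29 and RPL37A 1.24. They were followed by BUB3 1.20. On the log2 scale the differences below 0 were led by IFI27 -9.36, CD74 -8.01, S100A4 -7.21, CFB -6.42, RARRES2 -6.302, ANXA8 -5.804, BST2 -5.74, EGR1 -5.48 and CXCL1 -5.301. Next came FOS -5.197, CDC42BPG -4.85, GSTM1 -4.75, CDA -4.74, CDKN1A -4.67, COL4A5 -4.45, BSCL2 -4.44, NEDD9 -4.204 and COL5A1 -3.99. After these came KRT7 -3.79, CSF1 -3.51, F3 -3.43, VEGFA -3.31, SLC16A3 -3.02, ARRDC3 -2.84, JUP -2.83, GBP2 -2.82 and CD14 -2.701. They were followed by HSPB8 -2.69, SOCS1 -2.68, NNMT -2.32, IER3 -2.29, CTSL -2.28, PLK2 -2.27, TAP1 -2.13, EPHX1 -1.83 and TMEM203 -1.78. Then came CFLAR -1.76, PDIA4 -1.69, MT-ND6 -1.68, LGALS3 -1.65, EREG -1.64, SOX4 -1.599, EMILIN2 -1.59, CALR -1.58 and HSPA5 -1.48. Smaller ones were IER2 -1.44 and CD47 -1.23. Each was tested as a contrast of the knockout responses in limma, and all of these genes are described above.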

How the results depend on the processing

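Of the 97 named differences, 90 kept their direction and their side of the threshold in each of the 26 alternatives that tested them. The filter at 5 FPKM tested 86 of the 97. IFIT3 reversed, to -0.53 after 20 Mb window centring. CD274, FST, DUSP1, IFIT3 and PLCB1 fell short of the threshold in at least 1 setting. Those of CD274 were 0.06 with a pseudocount of 5, 0.21 after upper-quartile scaling and 0.02 after window centring. The differences of ARSJ and TMCO6, which missed the threshold as deposited, passed it in at least 1 setting. The median difference relative to all pairs changed sign for 4 lists: mitochondrially encoded genes (-0.51, and 0.36 after window centring), NRF2 and glutathione genes (0.05, and -0.09 after quantile normalization and -0.13 with the filter at 5 FPKM), respiratory chain genes (0.05, and -0.02 after quantile normalization) and G2/M genes (-0.07, and 0.10 with no filter). The cause was not tested.

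With a pseudocount of 5, differences above 2-fold numbered 381 higher and 220.0 lower in MDA-MB-231, shared genes 4 higher and 18 lower, opposite genes 39 higher in MDA-MB-231 and 38 higher in CT26, and CT26-specific genes 8 and 9. With no filter, which tests more genes, lower calls numbered 2978, those above 2-fold 629, MDA-MB-231-specific lower genes 552, and CT26-specific genes 45 higher and 36 lower. A filter at 5 FPKM left 14 CT26-specific higher genes. After upper-quartile scaling lower calls were 2931, higher ones above 2-fold 295, opposite genes 35 and 137, MDA-MB-231-specific genes 368 and 411, and CT26-specific genes 36 and 10. After quantile normalization, higher differences above 2-fold were 368, opposite genes higher in MDA-MB-231 57, MDA-MB-231-specific higher genes 416 and CT26-specific lower genes 10. After window centring the same 4 counts were 240, 25, 337 and 7.

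Leaving out 1 library at a time gave 4213 to 4340 higher and 1834 to 1943 lower calls, and 601 to 651 and 360.0 to 378 above 2-fold. Class sizes then ranged over 18 to 21 and 38 to 42 (shared), 86 to 105 and 84 to 95 (opposite), 596 to 665 and 247 to 280 (MDA-MB-231-specific), and 16 to 21 and 13 to 24 (CT26-specific). The lowest, 13, was without replicate 2 of the MDA-MB-231 knockout. With the replicate number as a block the calls were 4325 higher and 1897 lower. Deviations of same-numbered libraries correlated at -0.07 to 0.11 in MDA-MB-231 and -0.05 to 0.16 in CT26, and 2 of 4 and 3 of 4 pairs correlated best with their own number. Whether same-numbered libraries were handled together cannot be told from these values. Within MDA-MB-231, depth limits low values of the knockout more than those of the wild type.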
